A study of Mus musculus with 34 samples.

Results

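Methylation of the CpG islands of 10 genes of the Notch signalling pathway was followed over 34 mouse arrays by methylated DNA immunoprecipitation (mDIP). The genes were the receptor gene Notch1, the ligand genes Dll1, Dll4, Jag1 and Jag2, the target genes Hes1, Hes5, Hey1 and Hey2, and the modulator gene Dtx1. A probe belonged to a gene when the array annotation gave it that gene's name. Neighbouring probes with gaps of at most 500 bases were joined into islands of at least 3 probes. This gave 16 islands in 9 of the 10 genes, out of 13616 islands on the array. The 16 islands held 158 of the 160 probes of these genes, the others being a pair of Hes1 probes too few for an island. Jag2 had 0 probes and was not analysed here. Each island was scored by its island methylation score (IMS), the mean Z-score of its probes. A Z-score is the distance of a probe's log ratio of bound to input DNA from the mean of its array, in standard deviations of that array. An IMS of 0 is therefore the average probe of that array, and a score above 0.75 marks an island rich in bound, methylated DNA. The name and the cut-offs of 0 and 0.75 are those of the study, whose Z-scores also took account of probe melting temperature (Tm). No such step was made here, so islands of unlike base composition are compared without it.

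The arrays compared embryonic stem (ES) cells and their derivatives with tissue formed in the animal. DNA of the mice was from C57Bl/6 animals by the methods. Adult tissue came from mice of 3 months and made up 16 arrays, 2 each of pancreas, liver, colon, lung, kidney, spleen, muscle and brain. Whole embryos gave 5 arrays, 1 each at 8.5, 9.5, 10.5, 11.5 and 12.5 days post coitum (dpc). Undifferentiated ES cells were represented by the lines EB5, J1 and TT2 with 1 array each. The 5 arrays of ES cells differentiated in culture held embryoid bodies from TT2 grown in hanging drops, cells treated with retinoic acid, endoderm with 2 arrays, and mesoderm. Endoderm and mesoderm came from an EB5 derivative that carries Gsc-GFP and Sox17-huCD25 reporters. Those cells were treated with Activin A and sorted on the reporters, so both lineages trace to a single line. The labels name TT2 and the methods J1 as the parent of the cells treated with retinoic acid. The 2 teratomas are labelled as J1-derived, whereas the methods name D3 and C4 cells grown in NOD-SCID mice. Ex vivo beta cells, sorted from pancreatic islets, and the pancreatic cell lines Min6 and aTC had 1 array each and entered no test. By the supplement the beta cells were sorted with antibodies to insulin from transgenic mice carrying a Pdx1-GFP construct. The ages of those mice spanned several months, so they were not matched to the adult tissue. A score in a mixed tissue averages over its cells. Full methylation in a few cells and partial methylation in many cannot be told apart.

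Notch is a receptor through which neighbouring cells signal to each other. A ligand of the Delta or Jagged family on the adjacent cell triggers cleavage of the receptor, and the freed intracellular part enters the nucleus and acts with the DNA-binding protein Rbpj. Hes and Hey genes are the classic targets and encode repressors of the basic helix-loop-helix type, while Dtx1 (Deltex 1) encodes a ubiquitin ligase that binds the intracellular part of Notch. The pathway sets cell fates in the embryo, among them those of neural, vascular, pancreatic and blood precursors.

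Input DNA read 3.07 to 7.34 times the local background and bound DNA 1.54 to 5.59 times, as medians over the probes of an array. mDIP reads no transcripts, so marker genes could not be used to check the labelled tissues. The 376 islands of the X chromosome separated the sexes as labelled, with mean scores of 0.915 to 1.87 on the 7 arrays of adult females and 0.151 to 0.293 on the 9 arrays of adult males. The J1 array stood apart in a different way. Its scanner ratios correlated at 0.113 with its column in the authors' processed table, against 0.894 to 0.991 for the other 33 arrays. The scanner ratios were used, and differences that involve undifferentiated cells are given also without J1. All 16 adult arrays were read with a single version of the scanner software, and all 5 embryo arrays with other versions. No slide or scan day held both an embryo and an adult array.

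Sequence at the start sites is shown by the 250 bases before the transcription start of 4 of the genes. They are taken from RefSeq (GRCm38.p6) and given 5′ to 3′ on the strand of the gene, with each CpG, the dinucleotide that carries the methylation, in capitals. The Dtx1 stretch, chr5:120711670-120711919 on the minus strand, ends where most of the island that differed most between classes begins. Of that island's 8 probes 1 lies before the start and 7 after it. The Dll4 stretch, chr2:119325534-119325783 on the plus strand, and the Dll1 stretch, chr17:15375824-15376073 on the minus strand, belong to ligand genes whose start sites stayed low while an island further upstream differed. The Hes5 stretch, chr4:154960673-154960922 on the plus strand, is that of a target gene whose start site passed no comparison as reported.
Dtx1: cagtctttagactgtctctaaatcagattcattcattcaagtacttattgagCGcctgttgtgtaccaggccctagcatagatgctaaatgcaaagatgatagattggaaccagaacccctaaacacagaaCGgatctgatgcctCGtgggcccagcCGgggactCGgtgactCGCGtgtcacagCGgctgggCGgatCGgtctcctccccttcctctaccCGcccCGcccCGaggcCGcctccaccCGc
Dll4: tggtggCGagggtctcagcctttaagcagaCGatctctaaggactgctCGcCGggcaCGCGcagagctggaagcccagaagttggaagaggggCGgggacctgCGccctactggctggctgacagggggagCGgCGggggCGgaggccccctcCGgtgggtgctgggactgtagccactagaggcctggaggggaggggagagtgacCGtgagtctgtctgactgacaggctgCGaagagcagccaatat
Dll1: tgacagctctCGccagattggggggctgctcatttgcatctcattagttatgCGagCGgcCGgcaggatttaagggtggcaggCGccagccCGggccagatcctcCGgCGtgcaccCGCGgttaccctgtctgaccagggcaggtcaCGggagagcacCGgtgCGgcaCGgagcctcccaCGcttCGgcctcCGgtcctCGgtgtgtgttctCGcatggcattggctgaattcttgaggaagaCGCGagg
Hes5: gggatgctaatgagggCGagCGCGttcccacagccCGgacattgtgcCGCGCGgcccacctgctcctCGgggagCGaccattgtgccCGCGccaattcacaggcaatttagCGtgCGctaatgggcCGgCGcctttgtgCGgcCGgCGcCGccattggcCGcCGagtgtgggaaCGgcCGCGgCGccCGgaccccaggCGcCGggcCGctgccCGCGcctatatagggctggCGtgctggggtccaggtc
These stretches held 15 CpG in Dtx1, 14 in Dll4, 21 in Dll1 and 32 in Hes5. The median over all 32851 promoters of the RefSeq table was 6 CpG (quartiles 2 and 16). The letters TGGGAA, the core recognised by Rbpj, were found 2 times in Hes5, counting both strands, and 0 times in the other 3. Of all promoters, 21.6% held these letters. A second start of Dll1 and the starts of Notch1, Jag1, Jag2 and Hey2 were also in the table, and those of Hes1 and Hey1 were not. The deposited coordinates carry no named build, so probes were placed on these genes by the distances from the start that the array annotation gives.

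In adult tissue the start sites of the receptor, the ligands and Dtx1 were poor in methylated DNA. The islands at the start of Notch1, Dll1, Jag1 and Dtx1, and the Dll4 island that begins 75 bases after its start, lay below 0 on every adult array. That is 5 of 16 member islands, against 29.8% of all islands. The mean scores of these 5 over the 16 adult arrays were -0.412 ± 0.167 for Notch1, -0.337 ± 0.123 for Dll1, -0.395 ± 0.195 for Jag1, -0.379 ± 0.125 for Dll4 and -0.282 ± 0.124 for Dtx1 (SD, n = 16). By this score the target genes had start sites nearer to the average probe, a contrast that depends in part on the array grid. Adult means were -0.204 ± 0.118 for Hey1, -0.0526 ± 0.287 for Hes5 and 0.0382 ± 0.129 for Hey2, and -0.229 ± 0.192 for the Hes1 island at positions -955 to -706 from its start (SD, n = 16). The smaller of the 2 probe grids holds 7 of 10 Hey1, 7 of 10 Hes5 and 8 of 9 Hey2 probes. The remaining probes were read on 10 adult arrays and lay above these means. They averaged 0.526 to 0.663 in Hey1, 0.131 to 0.872 in Hes5 and 1.00 in Hey2.

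Islands away from a start site reached the highest scores. A 4-probe island deep in Notch1, 37915 to 38236 bases after the start, scored 2.74 ± 0.267 (SD, n = 16). It was the 1 member island above 0.75 on every adult array, a state found in 7.37% of all islands. An island of 9 probes inside Dtx1, 16481 to 17321 bases after the start, scored 1.81 ± 0.658, and the 9-probe island upstream of Dll4, at positions -3719 to -2839 from the start, scored 0.988 ± 0.506 (SD, n = 16). Whether the probes inside genes lie in exons or introns was not analysed here. Within Dtx1 the start site and the gene body thus lay on opposite sides of the array average on all 16 adult arrays.

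**Figure D1:**
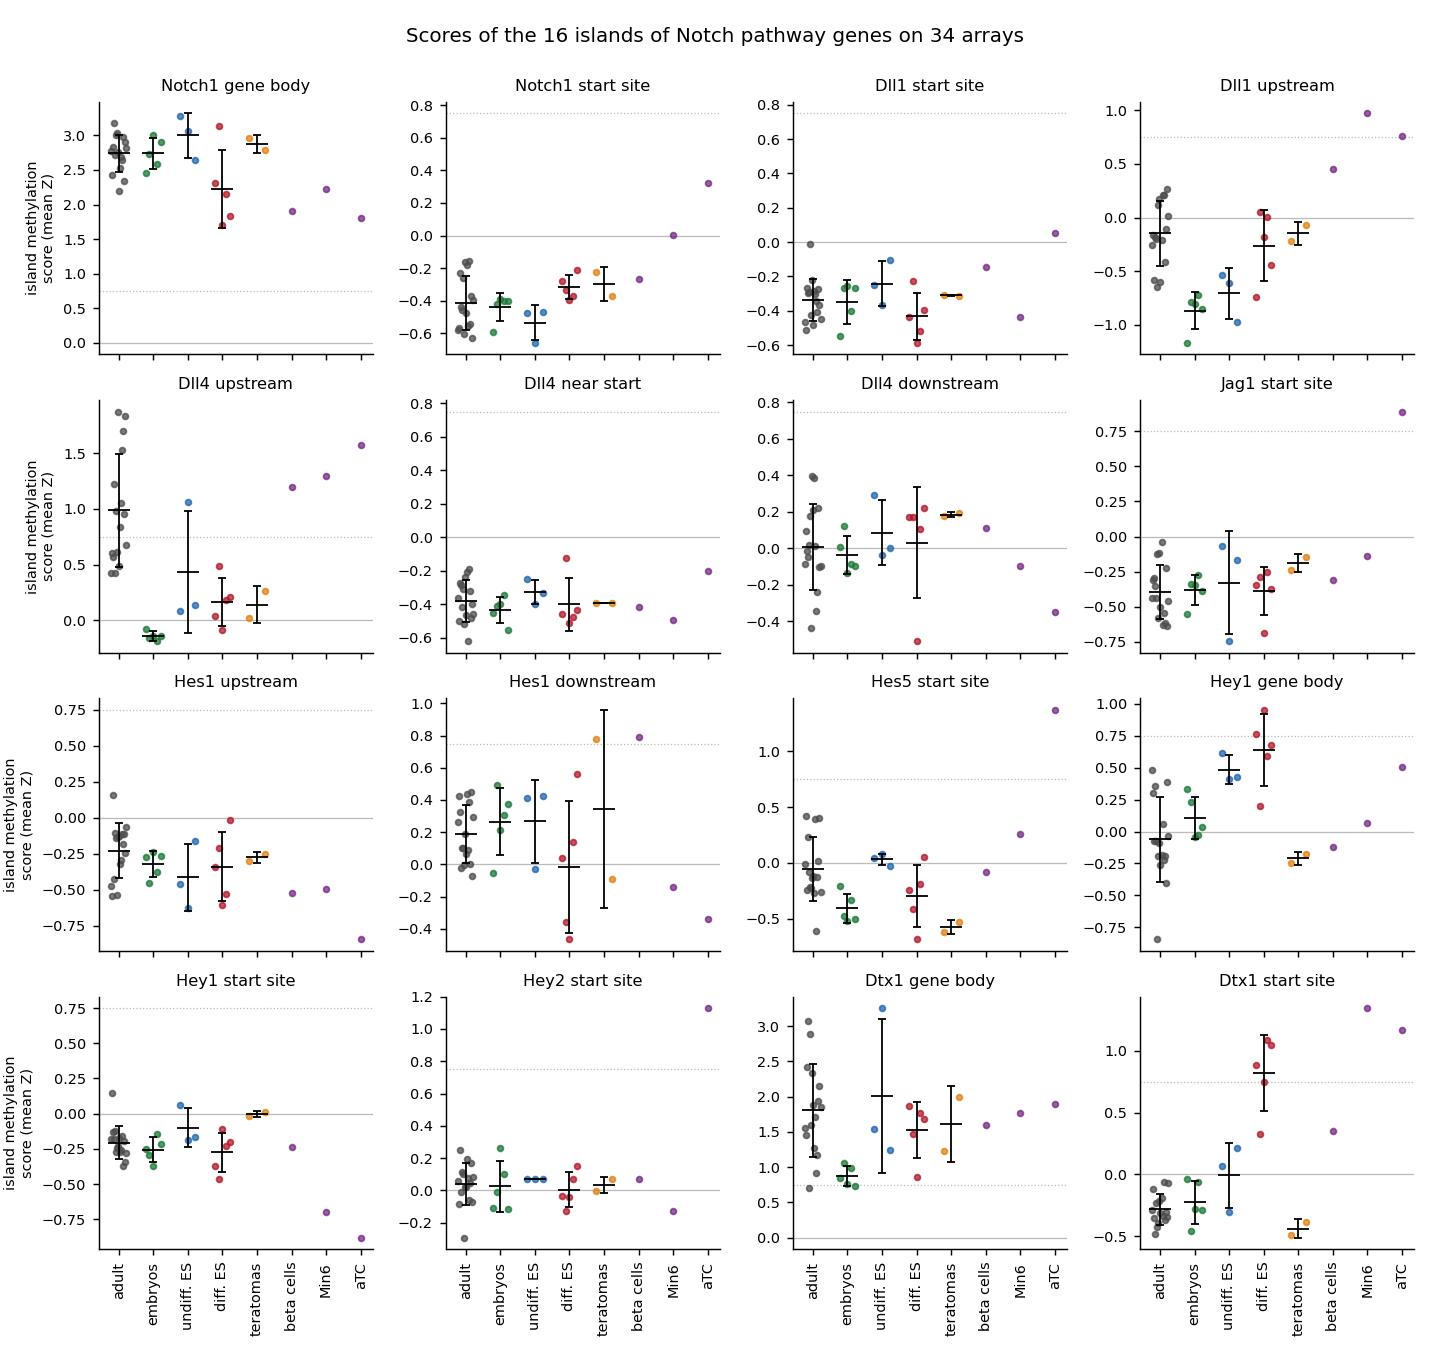
Island methylation score (mean Z, y axis) of each of the 16 islands on 34 arrays, by class of sample (x axis); points are arrays, bars the mean ± SD of classes with over 1 array, and lines mark 0 and 0.75. The Dtx1 start site is high on the 5 arrays of differentiated ES cells (0.325 to 1.09) and below 0 on all adult arrays.

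The 8 adult tissues were compared with each other, to ask whether these islands carry tissue-specific methylation. By the limma F test with Benjamini-Hochberg adjustment, 0 of the 16 islands differed among tissues, and 0.0808% of all islands did. Unadjusted, 538 of 13616 islands passed 0.05 by this limma test. The 1 member island among them was that upstream of Dll1 at positions -5468 to -5097 from the start (adjusted p = 1). Its tissue means ran from -0.424 in brain to 0.206 in lung, with kidney at 0.143 and spleen at 0.139 (n = 2 each). Each tissue set against the other 7 called 0 member islands, against 0.72% of all islands for colon, 0.0514% for pancreas and 0.0% for each of the other 6 tissues. Unadjusted, 5 such contrasts passed 0.05, 1 each in colon, brain, liver, lung and pancreas. Of all 13616 islands, 1362, 544, 357, 450 and 692 did so in these tissues. The Hey1 gene body differed from the other tissues by 0.520 (SE 0.190, adjusted p = 0.351) in colon and by -0.454 (SE 0.190, adjusted p = 0.9995) in brain. The Notch1 gene body scored -0.435 (SE 0.175) in liver relative to the other tissues, the Dll1 upstream island 0.406 (SE 0.159) in lung and the Dtx1 gene body 1.08 (SE 0.440) in pancreas, with adjusted p of 0.9999, 0.981 and 0.958. With 2 arrays a tissue, differences of this size were not separable from the spread between arrays.

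**Figure D2:**
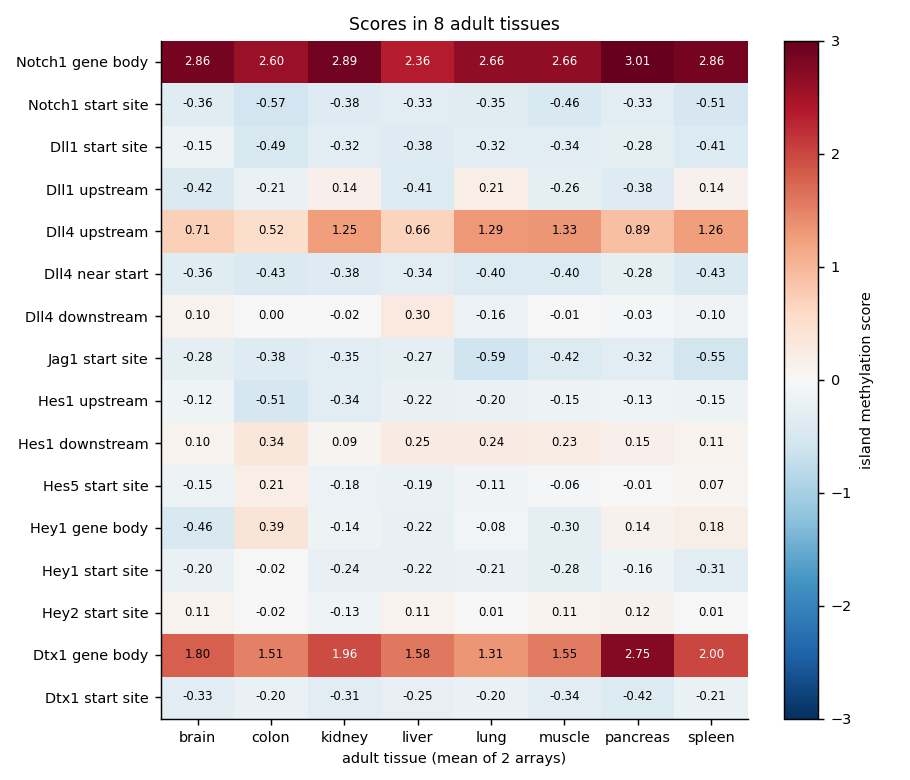
Mean island methylation score (colour and printed number) of each island (rows) in each of 8 adult tissues (columns, 2 arrays each). The Notch1 and Dtx1 gene bodies and the Dll4 upstream island are above the array average in every tissue, and the start sites of Notch1, Dll1, Jag1 and Dtx1 are below it in every tissue.

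The question of the series, whether differentiation in culture leaves islands methylated that stay unmethylated in the animal, was asked of each island by comparing differentiated ES cells with adult tissue. Of the 16 member islands 2 were higher and 2 were lower in differentiated cells at an adjusted p under 0.05. Over all islands 14.4% were higher and 8.73% lower. The median difference was -0.083 over the member islands and -0.00995 over all islands. Higher were the Dtx1 start site and the Hey1 gene body. Lower were the Dll4 upstream island and the Notch1 gene body. The remaining 12 islands did not pass, among them those at or near the starts of Notch1, Dll1, Dll4, Jag1, Hes5, Hey1 and Hey2.

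**Figure D3:**
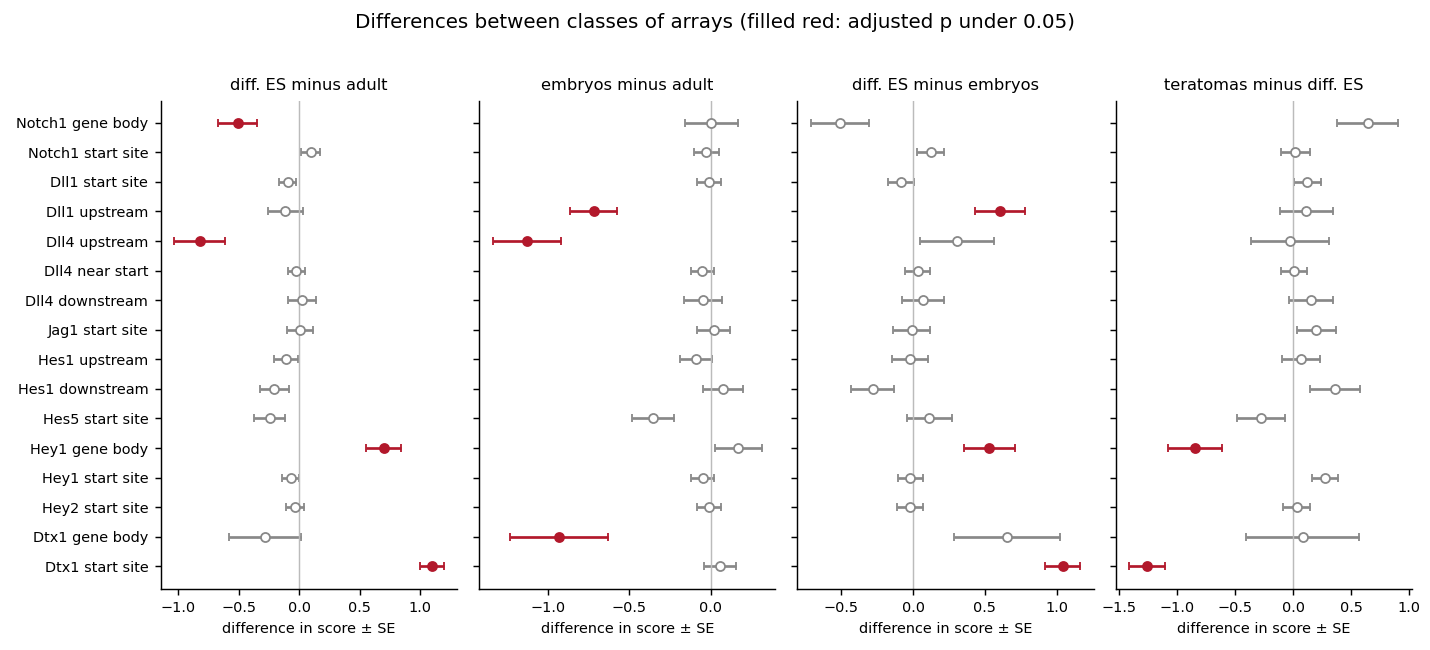
Difference in island methylation score ± SE (x axis) for each island (y axis) in 4 comparisons, from limma fits over all islands; filled red points passed an adjusted p of 0.05. The Dtx1 start site is 1.10 above adult tissue and 1.04 above embryos in differentiated ES cells, and 1.26 lower in teratomas than in differentiated ES cells.

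The Dtx1 start site showed the largest difference of any member island. It holds 8 probes at positions -66 to 905 from the start, at chromosome 5, 120971359 to 120972374 in the deposited coordinates. The 16 adult arrays scored from -0.481 to -0.0611, with a median of -0.308. Embryoid bodies scored 0.882, cells treated with retinoic acid 0.325, endoderm 0.748 and 1.09, and mesoderm 1.05. All 5 differentiated arrays lay above every adult array, with retinoic acid the lowest of them. The difference was 1.10 (SE 0.0977, adjusted p = 2.49e-09). All 8 probes of the island were higher in differentiated cells, by 0.686 to 1.68 in mean Z.

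The embryos did not share this score. They scored -0.0405, -0.458, -0.277, -0.0615 and -0.287 from 8.5 to 12.5 dpc, below each differentiated array. Differentiated cells exceeded embryos by 1.04 (SE 0.121, adjusted p = 6.28e-07). Higher scores than in embryos were found for 3 member islands in all and lower scores for 0, against 11.8% and 9.29% of all islands. With slide or software version as a term the Dtx1 difference remained at 1.08 and 0.722, with adjusted p of 0.0973 and 0.160. Between embryos and adult tissue the start site differed by 0.0574 (SE 0.0977, adjusted p = 0.807).

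Undifferentiated cells lay between. EB5 scored 0.0662, J1 -0.304 and TT2 0.212, so that 2 of the 3 lines were above every adult array and all 3 below every differentiated array. Differentiated cells were 0.826 higher (SE 0.139, adjusted p = 0.000727), and 0.678 higher without J1 (adjusted p = 0.0106). Over all islands 3.51% were higher and 1.92% lower in this comparison, and of the members 1 was higher and 1 lower. Fitted with these classes alone the adjusted p was 0.136, and with slide as a term it was 0.0810. Undifferentiated cells scored 0.274 (SE 0.120, adjusted p = 0.240) above adult tissue, and 0.421 (SE 0.136, adjusted p = 0.0515) without J1, which did not pass either way.

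Teratomas, which form from ES cells inside a mouse, scored -0.490 and -0.387 at the Dtx1 start site. Both lay below every differentiated array, and 1 of them below every adult array. Teratomas were lower than differentiated ES cells by 1.26 (-1.26, SE 0.157, adjusted p = 1.18e-05), a call lost only with the methods' equal-variance test among the settings tried (adjusted p = 0.159). By the labels the teratomas derive from J1 and every differentiated array from TT2 or EB5. Undifferentiated J1 itself scored -0.304, within the adult range. Parent line and growth in a mouse thus cannot be told apart in any comparison of teratomas with differentiated ES cells. Of the members 2 were lower and 0 higher in teratomas than in differentiated ES cells, against 5.27% and 1.53% of all islands. Against adult tissue, teratomas differed at 0 member islands, and at 0.176% (higher) and 0.0147% (lower) of all islands. Unadjusted, 2 member islands passed 0.05 in that comparison, where 1061 of 13616 islands did. They were the Hes5 start site (-0.521, SE 0.184, adjusted p = 0.430) and the Dll4 upstream island (-0.848, SE 0.302, adjusted p = 0.440). Teratoma arrays, all of the smaller grid, held 7 of the 10 Hes5 probes, so the Hes5 value rests in part on unlike probes.

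Within slides the Dtx1 difference could be read directly for a pair of arrays. Endoderm replicate 2 shared a slide with pancreas replicate 1 and exceeded it by 1.44. Embryoid bodies shared a slide with brain replicate 2 and exceeded it by 1.31. Both within-slide differences were larger than the difference over all arrays. The call against adult tissue held without each of the 5 differentiated arrays in turn, with adjusted p no higher than 5.24e-08, and under each of the 16 other settings tried, with adjusted p no higher than 0.000495. The Dtx1 start site was also the 1 member island below 0 on every adult array and above 0.75 on at least 1 differentiated array, a state of 0.881% of all islands.

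**Figure D4:**
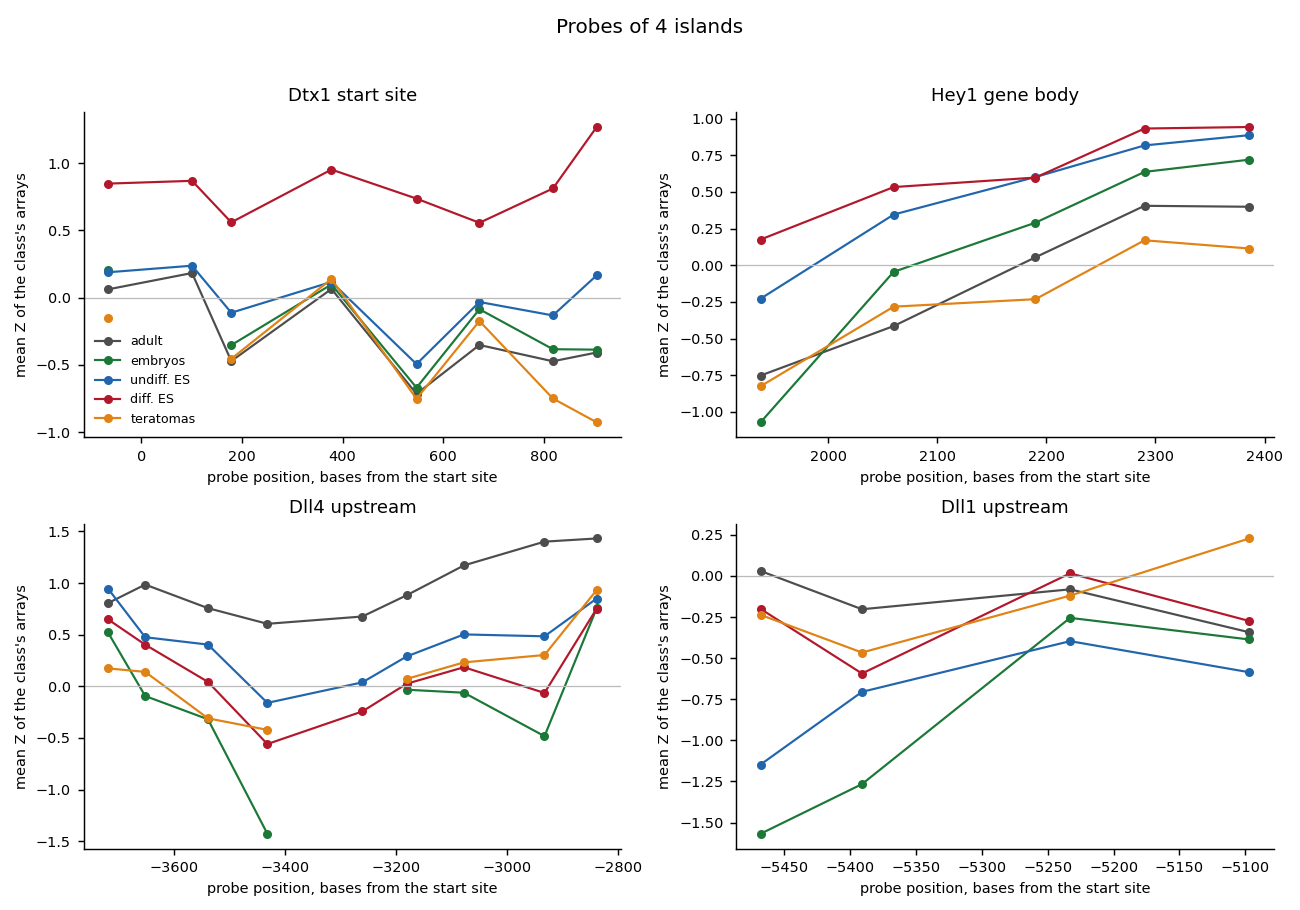
Mean Z of the arrays of each class (y axis) at each probe, by distance in bases from the start site (x axis), for 4 islands; a line breaks where a class has no array of the grid that holds the probe. At the Dtx1 start site differentiated ES cells lie above the other 4 classes at every probe, and at the Dll4 upstream island adult tissue lies highest at 8 of 9 probes.

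Hey1, which encodes a Notch-driven repressor, was the target gene that differed. Its 5-probe gene body island, 1938 to 2386 bases after the start, scored from -0.844 to 0.482 in adult tissue with a median of -0.0826. Embryoid bodies scored 0.765, cells treated with retinoic acid 0.198, endoderm 0.953 and 0.591, and mesoderm 0.676. These values put 4 of the 5 differentiated arrays above every adult array. The difference was 0.699 (SE 0.145, adjusted p = 0.000614), and 5 of 5 probes were higher. It held without each differentiated array and failed with a background correction by normexp (0.375, adjusted p = 0.0741).

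Among the undifferentiated lines EB5 scored 0.616, J1 0.415 and TT2 0.425 at this island, within the range of the differentiated arrays. Against adult tissue they were 0.547 above (SE 0.178, adjusted p = 0.0997), and 0.582 without J1 (adjusted p = 0.0937), which did not pass. Embryos scored 0.332, 0.231, -0.0400, -0.0290 and 0.0366 from 8.5 to 12.5 dpc. Differentiated cells were higher than embryos by 0.530 (SE 0.179, adjusted p = 0.0330), but the call held in only 3 of the 10 fits that left out 1 array, with adjusted p up to 0.0961, and the difference was 0.00266 with software version as a term. Teratomas scored -0.249 and -0.173, and the difference from differentiated cells was -0.848 (SE 0.232, adjusted p = 0.0236). That call was lost without endoderm replicate 1 (adjusted p = 0.0523), without teratoma replicate 1 (0.254) and without teratoma replicate 2 (0.149). As at the Dtx1 start site, the labelled parent lines of the teratomas and the differentiated arrays differ. The island at the Hey1 start, in contrast to the gene body, had a mean of -0.275 ± 0.140 in differentiated cells (SD, n = 5), within 1 SD of the adult mean. Arrays of the smaller grid held 7 of the 10 probes at the Hey1 start, so both means mix unlike probes.

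The other targets passed no test between classes. Hes5 scored -0.243 in embryoid bodies, -0.418 with retinoic acid, -0.686 and -0.190 in endoderm and 0.0557 in mesoderm, against -0.615 to 0.422 in adult tissue with a median of -0.123. The ranges overlapped and the difference was -0.244 (SE 0.128, adjusted p = 0.174). In embryos Hes5 scored from -0.519 to -0.209, a difference of -0.357 from adult tissue (SE 0.128, adjusted p = 0.0804). Only 7 of the 10 Hes5 probes are on the smaller grid, which all embryo arrays used. The others, at 201, 465 and 717 bases after the start, averaged 0.872, 0.131 and 0.548 on 10 adult arrays. The difference thus rests in part on unlike probes. Hey2 scored -0.0328 in embryoid bodies, -0.130 with retinoic acid, -0.0413 and 0.0714 in endoderm and 0.153 in mesoderm. These lie inside the adult range of -0.293 to 0.247, with a median of 0.0520, and the difference was -0.0340 (SE 0.0724, adjusted p = 0.777). For Hes1, the island 4696 to 5384 bases after the start spread widely over the differentiated arrays, at 0.0425, -0.358, -0.465, 0.140 and 0.559 in the same order. Adult arrays ran from -0.0714 to 0.452 with a median of 0.145. Differentiated arrays lay both above and below that range, and the difference from adult tissue was -0.206 (SE 0.122, adjusted p = 0.234). The smaller grid holds 4 of the 6 probes of this island. The remaining probes averaged 0.579 and 0.390 on 10 adult arrays, so this difference too rests in part on unlike probes.

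Among the ligands, Dll4 and Dll1 differed at islands upstream of the gene and not at the start. Dll4, the ligand of vascular sprouting, has an upstream island that scored from 0.427 to 1.88 in adult tissue with a median of 0.896. It scored 0.0386 in embryoid bodies, 0.491 with retinoic acid, -0.0882 and 0.179 in endoderm and 0.204 in mesoderm. Of these 4 lay below every adult array. The difference was -0.823 (SE 0.210, adjusted p = 0.00454), and 9 of 9 probes were lower. The call held without each differentiated array. It was lost with slide as a term (-0.666, adjusted p = 0.318), with scan day as a term (-0.839, adjusted p = 0.192) and with normexp (-0.285, adjusted p = 0.470), and the within-slide differences were -0.387 and -0.946.

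At the Dll4 upstream island the embryos scored -0.0765, -0.162, -0.141, -0.189 and -0.146 from 8.5 to 12.5 dpc. All 5 lay below every adult array, and they spanned a narrow range. The difference from adult tissue was -1.13 (SE 0.210, adjusted p = 0.000741). Embryos were lower than adult tissue at 3 member islands and higher at 0, against 3.47% and 5.17% of all islands. With software version as a term the Dll4 difference was -1.05 (adjusted p = 0.622). With slide or scan day as a term it was -1.35 (adjusted p = 0.870) and -0.606 (adjusted p = 1), with normexp it was -0.461 (adjusted p = 0.371), and the part of these in the difference was not tested further. Teratomas scored 0.0220 and 0.258 and undifferentiated cells 0.0862 (EB5), 1.06 (J1) and 0.138 (TT2). J1 alone lay within the adult range. In the undifferentiated lines against adult tissue the difference was -0.558 (SE 0.257, adjusted p = 0.268), and -0.876 without J1 (SE 0.291, adjusted p = 0.0596). In that comparison 0 member islands passed with or without J1, against 0.984% higher and 1.31% lower of all islands. Unadjusted, 4 of the 16 member islands and 2276 of all 13616 islands passed 0.05 there.

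Dll1, a ligand of somite and neural development, showed a difference in the embryos. Its 4-probe upstream island scored -1.17, -0.791, -0.803, -0.727 and -0.855 from 8.5 to 12.5 dpc, against -0.652 to 0.264 in adult tissue with a median of -0.171. All 5 embryos lay below every adult array, and the difference was -0.720 (SE 0.142, adjusted p = 0.00132). Embryoid bodies scored -0.746, cells treated with retinoic acid 0.0503, endoderm -0.184 and 0.00783, and mesoderm -0.443. Differentiated cells were higher than embryos by 0.606 (SE 0.175, adjusted p = 0.0136), although embryoid bodies lay within the range of the embryos. EB5 scored -0.536, J1 -0.613 and TT2 -0.976. Both calls held without each array in turn and were lost with slide, scan day or software version as a term, with adjusted p from 0.268 to 1. With normexp they shrank to -0.238 (adjusted p = 0.396) and 0.348 (adjusted p = 0.285).

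The start sites of the 3 ligands stayed low in every class formed from mice or ES cells. Over the arrays of adult tissue, embryos, ES cells and teratomas, scores did not exceed -0.014 at the Dll1 start, -0.0372 at the Jag1 start and -0.124 at the Dll4 island near the start. Differences between differentiated cells and adult tissue were -0.0956 (SE 0.0726) for Dll1, 0.00641 (SE 0.104) for Jag1 and -0.0229 (SE 0.0705) for Dll4, with adjusted p of 0.367, 0.975 and 0.85. Jag1, a ligand of liver and vascular development, was read by 26 probes, the most of any member island, and 13 of them were higher in differentiated cells. It scored -0.345 in embryoid bodies, -0.290 with retinoic acid, -0.688 and -0.250 in endoderm and -0.372 in mesoderm, against -0.641 to -0.0372 in adult tissue with a median of -0.441. The island downstream of Dll4, which one grid of the array assigns to the neighbouring gene Spint1, averaged 0.0313 ± 0.305 in differentiated cells (SD, n = 5) and 0.00881 ± 0.236 in adult tissue (SD, n = 16).

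The receptor gene Notch1 differed in its gene body. The 4-probe island scored from 2.19 to 3.18 in adult tissue with a median of 2.76. Embryoid bodies scored 2.31, cells treated with retinoic acid 3.14, endoderm 1.71 and 2.16, and mesoderm 1.84. Endoderm and mesoderm lay below every adult array, while the cells treated with retinoic acid lay near the top of the adult range. The difference was -0.508 (SE 0.163, adjusted p = 0.0227), and all 4 probes were lower. The call was lost without endoderm replicate 1 (adjusted p = 0.113), without endoderm replicate 2 (0.0589) and without mesoderm (0.105). It was also lost with the deposited table (0.137), normexp (0.102, difference -1.04), the methods' equal-variance test (0.0502), software version as a term (0.0773) and adult replicate 2 alone (0.0979). Every class remained above 0.75 at this island.

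Undifferentiated lines scored 3.28 (EB5), 3.06 (J1) and 2.65 (TT2) at the Notch1 gene body, and differentiated cells were lower by 0.769 (-0.769, SE 0.232, adjusted p = 0.0481). That call held in 2 of the 8 fits that left out 1 array, and was lost without J1 (-0.736, adjusted p = 0.126). With the authors' processed table in place of the scanner ratios the difference was 0.0573. Embryos scored from 2.46 to 3.01 and teratomas 2.96 and 2.78, both within the adult range. At the Notch1 start, 18 probes gave means of -0.318 ± 0.0734 in differentiated cells (SD, n = 5), -0.440 ± 0.0856 in embryos (SD, n = 5) and -0.412 ± 0.167 in adult tissue (SD, n = 16). No comparison passed there.

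The Dtx1 gene body was the remaining island with a call. Embryos scored 0.851, 1.05, 0.755, 0.986 and 0.734 from 8.5 to 12.5 dpc, against 0.706 to 3.07 in adult tissue with a median of 1.78. The embryos lay at the low end of the adult range without leaving it. The difference was -0.932 (SE 0.298, adjusted p = 0.0478). It was lost without any 1 of the 5 embryos (adjusted p 0.0875 to 0.114) and was 0.134 with scan day as a term. Differentiated arrays scored 1.87 in embryoid bodies, 1.47 with retinoic acid, 0.861 and 1.76 in endoderm and 1.68 in mesoderm, and J1 had the highest score of all arrays at 3.26.

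Other genes of the pathway were counted in the same fits. Of 35 further genes, 26 had islands, 40 in all. Against adult tissue, differentiated ES cells were higher at 8 and lower at 2 of these 40 islands, where 14.4% and 8.73% of all islands were. Against embryos they were higher at 9 and lower at 1, where 11.8% and 9.29% of all islands were. By role, which was not tested, the calls against adult tissue lay in the Hes/Hey family (6 higher and 1 lower of 10 islands of 5 genes), the ligand Dll3 (2 higher of 3 islands) and the ligand ubiquitin ligases (1 lower of 5 islands). No island of the receptors Notch2 to Notch4, the gamma-secretase subunits or the nuclear complex around Rbpj passed in that comparison. Against undifferentiated cells 2 of the 40 were higher and 0 lower, where 3.51% and 1.92% of all islands were. Embryos were higher than adult tissue at 3 and lower at 3, where 5.17% and 3.47% of all islands were. Teratomas were lower than differentiated ES cells at 4, where 5.27% of all islands were. Teratomas differed from adult tissue, and adult tissues among themselves, at 0.

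Among the further islands that passed between differentiated ES cells and adult tissue, the 5 largest differences, 1 island a gene, were in Dll3, Hes2, Hes3, Hes7 and Hes6. An island of a ligand ubiquitin ligase differed by -0.579 without passing. Dll3 encodes a divergent Delta-like protein that dampens Notch signalling in somites. Its named island, of 3 probes, scored 0.377 ± 0.256 in adult tissue (SD, n = 16) and 1.24 ± 0.397 (SD, n = 5) in differentiated cells (difference 0.867, SE 0.135, adjusted p = 1.74e-05). Undifferentiated ES cells lay between these means, at 0.820 ± 0.184 (SD, n = 3). An island of Hes2 that the array assigns jointly to Espn scored -0.539 ± 0.199 in adult tissue and 0.134 ± 0.248 in differentiated cells (0.674, SE 0.0978, adjusted p = 6.61e-06). Hes3 and Hes6 were higher by 0.420 (SE 0.106, adjusted p = 0.00439) and 0.331 (SE 0.100, adjusted p = 0.0157). Hes7, the oscillating repressor of the somite clock, was lower (-0.379, SE 0.0876, adjusted p = 0.00189). Dll3 in embryos averaged 0.215 ± 0.185 (SD, n = 5), near the adult mean.

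The islands of other genes whose scores followed the Dtx1 start site most closely over the 34 arrays were those of Slc32a1 (r = 0.934), Barhl1 (r = 0.928) and Ski (r = 0.919). Slc32a1 encodes the vesicular transporter of inhibitory neurotransmitters, Barhl1 a homeodomain protein of neurons and inner ear, and Ski a corepressor of TGF-beta signalling. Their means in differentiated ES cells were 0.575, 1.61 and 1.40, against -0.371, 0.179 and -0.430 in adult tissue. The arrays share classes, slides and cell lines, so these correlations are descriptions.

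The pancreatic cells had 1 array each and were set beside the range of the 16 adult arrays with no test. At the Dtx1 start site ex vivo beta cells scored 0.350, Min6, a beta cell tumour line, 1.35 and aTC, an alpha cell tumour line, 1.16, all above every adult array. Of the 16 member islands, aTC exceeded every adult array at 8, Min6 at 3 and beta cells at 3, against 19.9%, 16.2% and 11.6% of all islands. The aTC array was high at start sites that were low or near 0 elsewhere, at 1.37 in Hes5, 1.13 in Hey2, 0.891 in Jag1 and 0.321 in Notch1. At the Hey1 start it lay below every adult array, at -0.879. Min6 and aTC shared a slide and had no replicate.

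**Figure D5:**
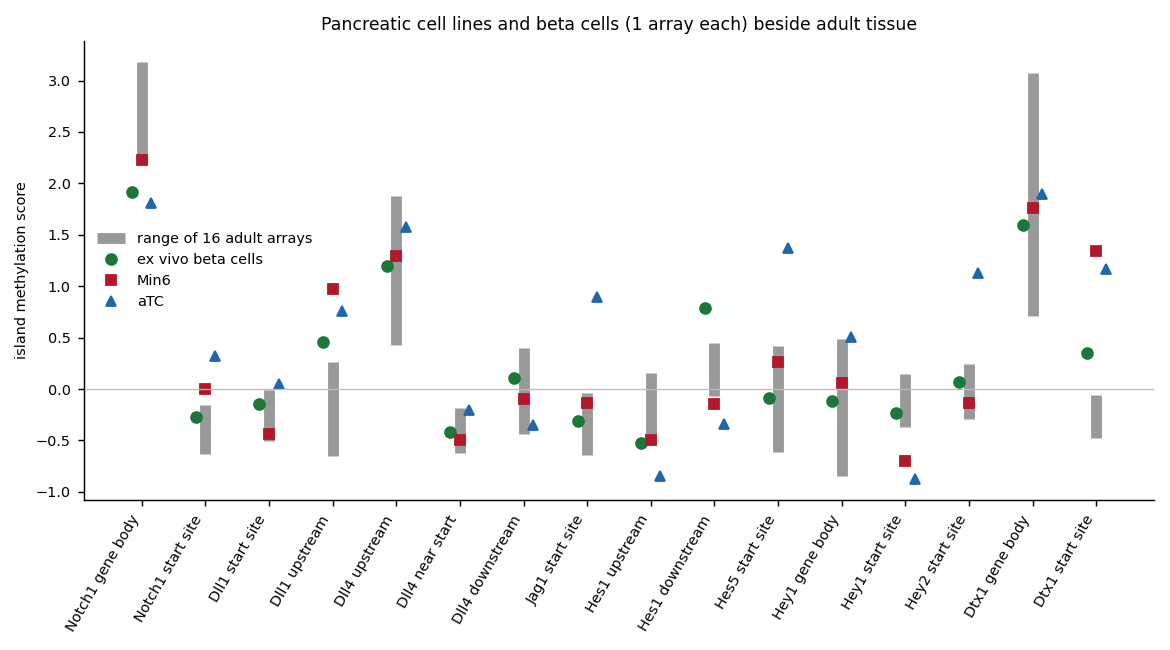
Island methylation score (y axis) of each island (x axis) on the single arrays of ex vivo beta cells, Min6 and aTC, with grey bars spanning the lowest to highest of 16 adult arrays. The aTC array lies above the adult range at 8 islands, among them the starts of Hes5 and Hey2, and all 3 arrays lie above it at the Dtx1 start site.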

How the data were processed

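Bound (Cy5) and input (Cy3) DNA of 34 samples were hybridised to Agilent mouse CpG island arrays, 1 array a sample, in 2 grids of 97651 and 88737 probes. Of the smaller grid, 88311 probes had coordinates. The authors deposited scanner files with the log10 ratio of bound over input, after background subtraction and linear dye normalisation by the Feature Extraction software. The same deposited files hold median spot and background intensities and other columns such as flags of 0 or 1. The authors also deposited a table of Z-scores, a score per probe and array, which served as an alternative. Spots with outlier flags were left out, ratios were turned into Z-scores per array with no adjustment for Tm, and islands scored over all probes present. Classes were compared with limma 3.58.1 in R 4.3.3 (lmFit and eBayes) over all 13616 islands with Benjamini-Hochberg adjustment, called at an adjusted p under 0.05. Tables were made in Python 3.11.15. The fit was tested on simulated data with independent noise on each array. The simulation held no effect of slide, scan day, software version, grid or cell line, so it does not give the error rates of these data. The number of arrays limits the precision. The labels do not say whether the adult replicates of a tissue came from separate animals, so p-values measure the spread between arrays.

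The 10 genes, the further pathway genes and the settings were chosen with earlier results of these data known. By the rule for named genes, every member island is described, every array is given for the island of each gene where differentiated ES cells and adult tissue lay furthest apart and for islands with a call, and the 5 largest called differences of further genes and the 3 islands most like the top island are named. The normexp correction used median signals, since mean signals were not in all files. Alternatives were the deposited table, normexp, brighter probes, the median of probes, at least 5 probes, log2 ratios, wider gaps, classes fitted alone, the methods' equal-variance test, slide, scan day and software version as terms, adult replicate 1 or 2 alone, and leaving out arrays. Shared probes of both grids and random blocks were added after seeing the data.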

Additional observations from a re-analysis of the deposited data

Results flagged for a closer look

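Within classes of 4 to 10 arrays, 5 values on 3 arrays stood apart by Dixon's 95% criterion among 32 groups of values tested (16 islands in each of 2 classes), and chance gives about 1 in 20. The embryo at 8.5 dpc was the lowest embryo at the Notch1 start site (-0.592, the others -0.420 to -0.390) and at the Dll1 upstream island (-1.17, the others -0.855 to -0.727). Cells treated with retinoic acid were the highest differentiated array at the Dll4 island near the start (-0.124, the others -0.512 to -0.436). Endoderm replicate 1 was the lowest differentiated array downstream of Dll4 (-0.509, the others 0.104 to 0.222) and at the Jag1 start site (-0.688, the others -0.372 to -0.250). No other array shared the slide, scan day or software version of endoderm replicate 1.

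The arrays of ex vivo beta cells, Min6 and aTC entered no comparison and scored above all 16 adult arrays at several islands. At the Dtx1 start site, where adult tissue did not exceed -0.0611, they scored 0.35, 1.35 and 1.16. At the Dll1 upstream island, where adult tissue did not exceed 0.264, they scored 0.455, 0.973 and 0.761. Beta cells also exceeded adult tissue at the Hes1 downstream island (0.791 against at most 0.452). Min6 also exceeded it at the Notch1 start site (0.00377 against at most -0.154). The aTC array exceeded it at the start sites of Notch1 (0.321), Dll1 (0.0507 against at most -0.014), Jag1 (0.891 against at most -0.0372), Hes5 (1.37 against at most 0.422) and Hey2 (1.13 against at most 0.247), and narrowly in the Hey1 gene body (0.501 against at most 0.482). With 1 array each, these differences have no replicate check.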

How the results depend on the processing

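The single calls on member islands were recomputed under every setting that could be fitted. Of these values 221 kept direction and side of the threshold, 84 kept direction without passing, and 2 changed sign, the Notch1 gene body between differentiated and undifferentiated ES cells with the deposited table (0.0573) and the Dtx1 gene body between embryos and adult tissue with scan day as a term (0.134). Counts of member islands called, of 16 unless stated, moved by over 1.5 times as follows, and the cause was not tested. Differentiated ES cells against adult tissue gave 4, but 1 with normexp, and 3 or 4 under the other settings, with 3 for the deposited table and at least 5 probes (of 12 each), the methods' equal-variance test, slide or software version as a term, adult replicate 2 alone and without either endoderm array. Against embryos they gave 3, but 1 with the deposited table (of 12), normexp or scan day as a term, and 0 with slide or software version as a term. Against undifferentiated cells they gave 2, but 4 with the deposited table (of 12), 1 with brighter probes (of 14), the median of probes, at least 5 probes (of 12), log2 ratios, scan day or software version as a term, or adult replicate 1 or replicate 2 alone, 0 with normexp, classes fitted alone, the methods' equal-variance test or slide as a term, and 1 to 2 when 1 array was left out. Undifferentiated cells against adult tissue gave 0, but 3 with the deposited table (of 12). Embryos against adult tissue gave 3, but 0 with normexp and with slide, scan day or software version as a term. Teratomas against differentiated ES cells gave 2, but 1 with normexp, log2 ratios, classes fitted alone or software version as a term, 0 with the methods' equal-variance test, and 1 to 3 when 1 array was left out. Teratomas against adult tissue, and adult tissues among themselves, gave 0 under every setting.

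With the replicate block both stayed at 0 member islands. Over all islands the replicate block gave 8 in place of 11 calls among tissues, and 54 in place of 26 between teratomas and adult tissue. The deviations of arrays with the same number correlated at -0.253 to 0.629 over 28 pairs of tissues, 14 of them above 0.1. Since the others were not above 0.1, and the labels tie no number to a batch, the numbers were not taken as pairs. In brain, kidney, liver, lung, muscle and spleen, however, the arrays numbered 1 shared a scan day and the larger grid, and those numbered 2 had other scan days and the smaller grid. Slide and scan day as fixed terms could not be fitted for teratomas or among tissues, nor software version among tissues. On the dimmest adult array 62.4% of probes had input well above background, which limits how well small differences are read.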

Other observations

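Counted per array, member islands outside the range of the 16 adult arrays were most frequent on endoderm replicate 1 and aTC. Endoderm replicate 1 lay below every adult array at 8 and above at 2 of the 16 islands, where 17.5% and 18.7% of all islands did so. The aTC array lay above at 8 and below at 4 (19.9% and 34.9%). The teratomas lay below every adult array at 3 and 2 member islands and above at 1 and 0, where 6.07% and 4.25% of all islands lay below and 7.93% and 4.75% above.

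Some islands passed the threshold under an alternative and not in the comparison as reported. Without mesoderm, the Hes1 downstream island was lower in differentiated ES cells than in adult tissue (-0.350, adjusted p = 0.0367) and than in embryos (-0.425, adjusted p = 0.0353). Arrays of embryos, embryoid bodies and cells treated with retinoic acid held 4 of the 6 Hes1 downstream probes. Both Hes1 differences thus rest in part on unlike probes. Without the cells treated with retinoic acid, the Notch1 gene body was lower in differentiated ES cells than in embryos (-0.737, adjusted p = 0.00249), as with brighter probes (adjusted p = 0.0345) and log2 ratios (adjusted p = 0.0332), and 0.870 higher in teratomas than in differentiated ES cells (adjusted p = 0.00906). The Hes5 start site was lower in embryos than in adult tissue with brighter probes (-0.382, adjusted p = 0.0275), log2 ratios (adjusted p = 0.0400) and adult replicate 1 alone (-0.408, adjusted p = 0.0468). Embryo arrays held 7 of the 10 Hes5 probes, whereas every adult array numbered 1 was of the larger grid. These Hes5 differences thus rest in part on unlike probes. Hes1 upstream was lower in differentiated ES cells than in adult tissue with scan day as a term (-0.415, adjusted p = 0.0476), and the Dtx1 gene body higher than in embryos with classes fitted alone (0.653, adjusted p = 0.0184). With the deposited table, undifferentiated cells exceeded adult tissue at the Dll4 island near the start (0.373) and at the Jag1 and Hey1 starts (0.253 and 0.446), and differentiated cells scored below them at the Dll1 start (-0.324), near the Dll4 start (-0.400) and at the Hey1 start (-0.554). That table is where the J1 column departs from its scanner file. These adjusted p come from limma with Benjamini-Hochberg adjustment over all islands.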
